A study of Mus musculus with 4 samples.

Results

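Interstitial fibroblasts, mural cells of the vessel wall and renin cells of the mouse kidney were described in 4 libraries of droplet single-cell RNA sequencing made after ischemia-reperfusion (I/R) injury. A cell was taken as a member when it held at least 1 unique molecular identifier (UMI, a count of captured RNA molecules) of Pdgfrb, Pdgfra or Gucy1a1 together with at least 3 UMIs of Col1a1, Col1a2, Col3a1, Rgs5 and Ren1 summed. It also had to hold no UMI of Ptprc, none of Pecam1 and at most 1 of Lrp2, conditions directed at leukocytes, endothelial cells and proximal tubule cells. The members were thus chosen by measured UMIs of these genes. The rule found 198 cells among 37839 barcodes kept for holding 200 genes or more and no more than 50% mitochondrial UMIs. Members with more UMIs of the 3 collagens than of Rgs5 and Ren1 were called collagen-led (126 cells), and the others Rgs5+Ren1-led (72 cells), with no tie.

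All mice were male C57BL/6, and all had I/R injury. One library each came from kidney at day 5, day 14 and day 28 after injury without L. casei Zhang (Lac.z), and 1 from day 5 in mice given this bacterium by gavage at 1e9 colony-forming units per day for 4 weeks before the injury. The sources used here do not say how many animals a library held, or whether mice without Lac.z were gavaged with anything. No uninjured kidney was analysed here. With 1 library per group no difference has a replicate check, so no test was made. Intervals are exact 95% intervals that cover counting error only. A ratio of summed expression of at least 2-fold, or a ratio of shares of at least 1.5-fold, is described as past that size.

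Fibroblasts of the kidney interstitium carry PDGF receptors and lay down the collagen and glycoprotein matrix that accumulates in fibrosis. Pericytes and vascular smooth muscle cells share Pdgfrb and Rgs5, and smooth muscle cells add a contractile programme led by Acta2, Tagln and Myh11. Renin cells sit in the wall of the afferent arteriole, belong to the same mural lineage, and secrete the enzyme that starts the renin-angiotensin cascade.

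The genes of the rule separated the members into 2 groups of cells with little between them. Collagen-led cells held a median of 160 UMIs of the 3 collagens at day 5, 106 under Lac.z, 145.5 by day 14 and 24 by day 28. Rgs5+Ren1-led cells held a median of 76.5, 155, 55 and 43 UMIs of Rgs5 and Ren1 in the same order. Cells with at least 3 UMIs of both sides numbered 9, 1, 3 and 4. These values chose the cells and are given as description. At the edge of the rule, 0, 1, 3 and 3 members held 3 to 5 UMIs of the 5 genes, and 1, 0, 0 and 3 barcodes that met every other condition held 2.

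**Figure D1:**
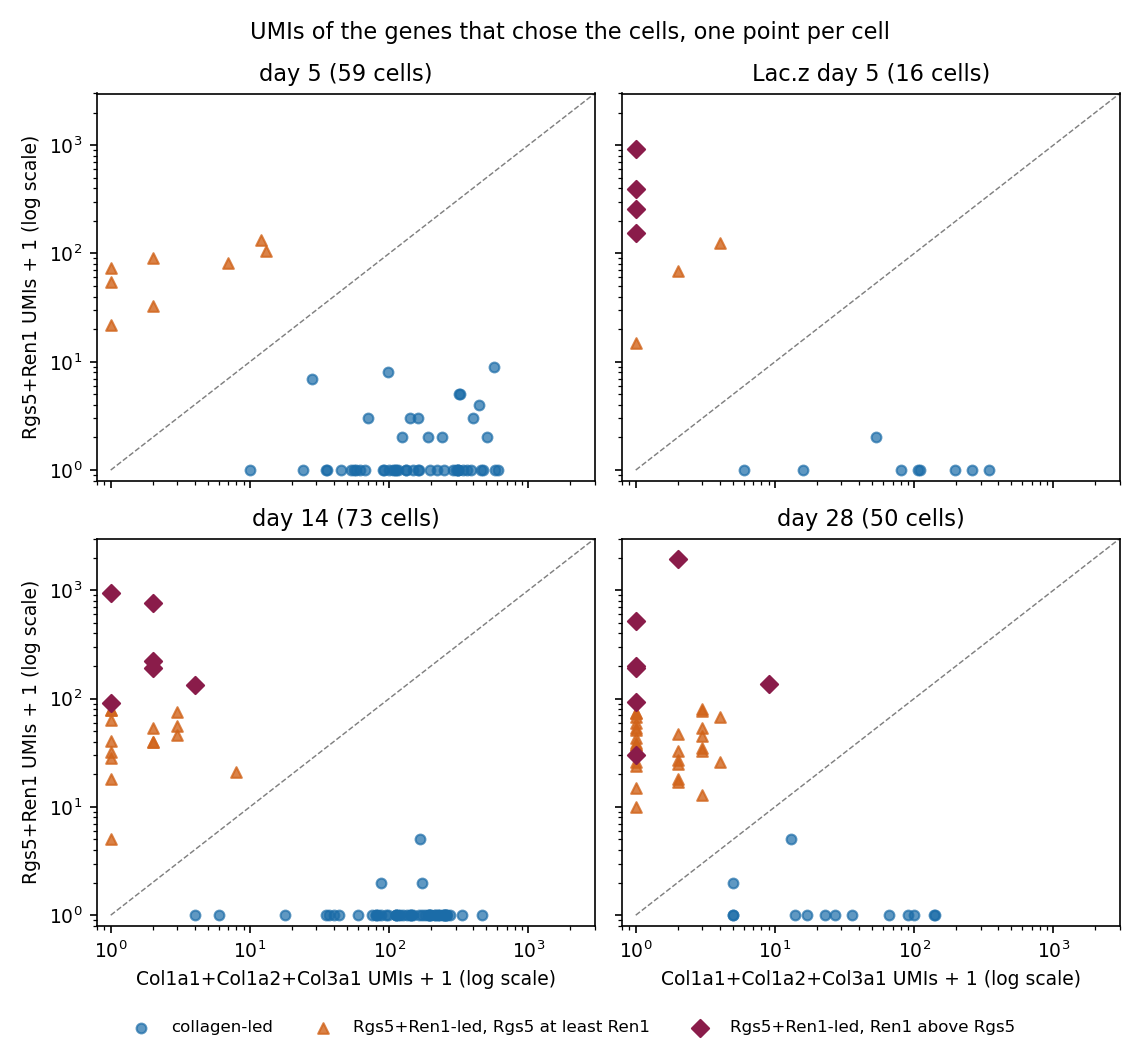
UMIs of Col1a1, Col1a2 and Col3a1 (x axis, 1 added, log scale) against UMIs of Rgs5 and Ren1 (y axis, 1 added, log scale) in each member, with 1 panel per library and a dashed line at equality. Collagen-led cells lie along the bottom and Rgs5+Ren1-led cells along the left, and diamonds mark the 0, 4, 6 and 7 cells with more Ren1 than Rgs5 UMIs at day 5, day 5 with Lac.z, day 14 and day 28.

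Collagen-led cells were a smaller share of the library at day 28 and at day 5 with Lac.z than at day 5 or day 14. They made up 0.720% of kept barcodes at day 5 (51 of 7086, interval 0.536% to 0.945%), 0.128% under Lac.z (9 of 7043, 0.0584% to 0.242%), 0.543% at day 14 (52 of 9572, 0.406% to 0.712%) and 0.0990% at day 28 (14 of 14138, 0.0541% to 0.166%). The day 28 share was 7.27-fold lower than at day 5 (3.96 to 14.2) and 5.49-fold lower than at day 14 (3.00 to 10.7). With Lac.z the day 5 share was 5.63-fold lower than without it (2.75 to 13.0). Day 14 stood at 0.755 of day 5 (0.503 to 1.13), which is not past 1.5-fold.

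Rgs5+Ren1-led cells made up 0.113% of kept barcodes at day 5, 0.0994% under Lac.z, 0.219% by day 14 and 0.255% at day 28. The ratio to day 5 was 1.94 at day 14 (0.827 to 5.07) and 2.26 at day 28 (1.03 to 5.62). Only 8 such cells were counted at day 5, and the day 14 interval includes equality. With Lac.z the share was 1.14-fold lower than without it, with an interval from 3.68-fold lower to 2.78-fold higher. Collagen-led cells therefore went from 86.4% of the members at day 5 to 71.2% at day 14 and 28.0% at day 28, and were 56.3% with Lac.z.

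Barcodes that held Lrp2, the endocytic receptor of the proximal tubule, were a larger part of the Lac.z, day 14 and day 28 libraries than of day 5 without Lac.z. Those with no Lrp2 UMI numbered 5402 of 7086 at day 5 and 2634 of 7043 with Lac.z. They numbered 3432 of 9572 at day 14 and 3955 of 14138 at day 28. The shares were therefore also taken over barcodes with no Lrp2 UMI. Collagen-led cells were then set against the number of such barcodes. They came to 0.944%, 0.342%, 1.52% and 0.354% at day 5, day 5 with Lac.z, day 14 and day 28. Members with 1 Lrp2 UMI, which the rule allows, were counted as cells but are not in this denominator. Such members were more frequent at day 28 than at day 5, so ratios of day 28 to day 5 come out too high here. The direction held for day 28 against day 5 (2.67-fold lower, 1.45 to 5.22), for day 28 against day 14 (4.28-fold lower, 2.34 to 8.36) and for Lac.z (2.76-fold lower, 1.35 to 6.38). Day 14 was instead 1.60-fold higher than day 5 (1.07 to 2.41). For Rgs5+Ren1-led cells the ratio to day 5 was 1.79 with Lac.z (0.554 to 5.66) and 4.13 at day 14 (1.76 to 10.8). At day 28 it was 6.15 (2.81 to 15.3). For all members together the day 28 to day 5 ratio changed from 2.35-fold lower to 1.16-fold higher with this denominator. The second interval runs from 1.29-fold lower to 1.72-fold higher, so it includes equality and the direction is not settled. Whether the shares follow the tissue or how well each cell type came through dissociation was not tested.

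**Figure D2:**
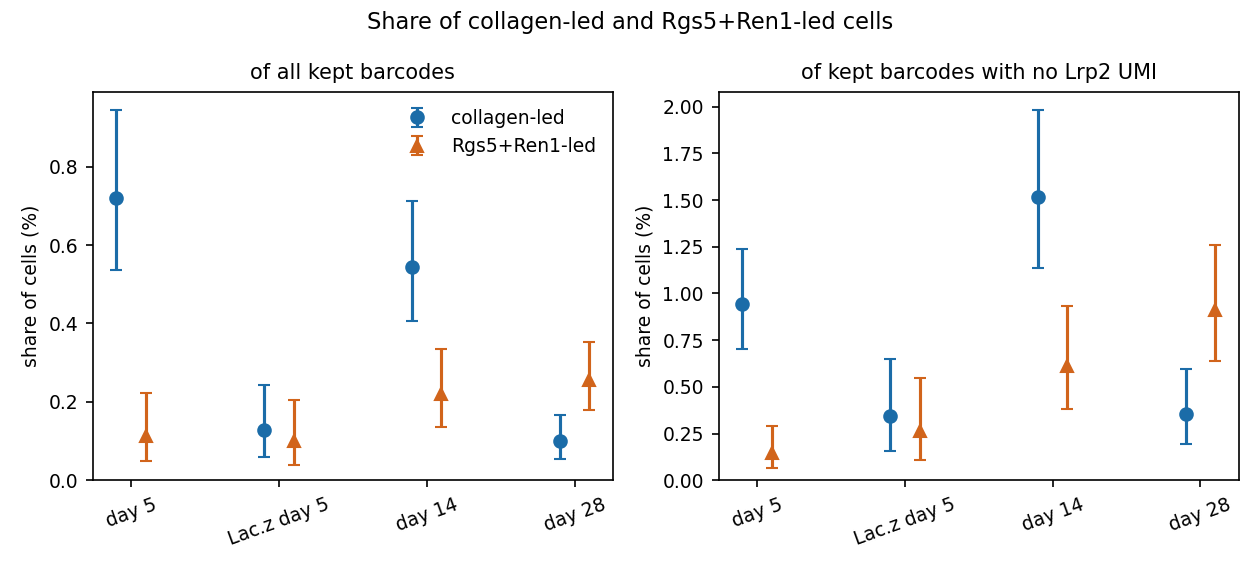
Share of collagen-led (circles) and Rgs5+Ren1-led cells (triangles) in each library (x axis) as a percent of all kept barcodes (left) and of kept barcodes with no Lrp2 UMI (right), with exact 95% intervals for counting error as bars. Collagen-led shares at day 28 lie below those at day 5 and day 14 in both panels, at 0.0990% on the left and 0.354% on the right.

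The members were deeper than the other barcodes, with a median of 15920 UMIs at day 5, 9982 under Lac.z, 11005 by day 14 and 6082 at day 28, against 9426, 8623, 6416 and 5120 in the rest. The median mitochondrial share of collagen-led cells was 4.89%, 4.30%, 3.32% and 4.57% in the same order, and that of Rgs5+Ren1-led cells was higher in each library, at 15.2%, 9.28%, 7.37% and 6.47%. Between 15 and 43 barcode sequences were shared by each pair of libraries. Both day 5 libraries were made with software version 3.0.2 and the later pair with 3.1.0, so version and time cannot be told apart. The 8 markers of T and NK cells summed to at most 4 UMIs in any class and library. The 9 endothelial markers summed to 635, 875, 582 and 315 CPM in collagen-led cells, above the 188, 109, 195.5 and 146 CPM of the other barcodes. At day 5 they gave 602 UMIs in 48 of 51 cells. Most were of Emcn, with 373, 94, 261 and 16 UMIs, and Eng, with 179, 32, 142 and 20, and between 4 and 6 of the 9 genes were detected in a library. Their part in the results was not tested. The 4 mesangial markers summed to 849, 1063, 1671 and 1083 CPM in collagen-led cells. They summed to 1016, 715, 903 and 562 CPM in Rgs5+Ren1-led cells and to 15.0, 12.5, 27.6 and 19.5 CPM in the other barcodes. Mesangial cells were not set apart. The 11 macrophage markers summed to 1075 UMIs in the collagen-led cells at day 5, of which 1 cell held 65.7%, and to 27, 42 and 5 at day 5 with Lac.z, day 14 and day 28. At day 5 such UMIs were in 48 of 51 cells. In the other barcodes these markers stood at 28439, 11759, 4430 and 1335 CPM in the same order of libraries. The 7 collecting duct markers summed to 221 UMIs in the collagen-led cells at day 28, of which 220 were in 1 cell. The 13 proximal tubule markers ran from 575 to 1728 UMIs scaled to a library total of 1000000 (CPM) in collagen-led cells and from 66.0 to 5198 CPM in Rgs5+Ren1-led cells, against 7619 to 48831 CPM in the other barcodes.

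Beyond the genes of the rule, the collagen-led cells were higher in most measured fibroblast identity genes and the Rgs5+Ren1-led cells in most measured mural and contractile genes. Over all libraries summed, 742 of 6178 measured genes (12.0%) were at least 2-fold higher in Rgs5+Ren1-led cells and 1113 (18.0%) at least 2-fold lower. A gene was measured when it had at least 50 UMIs in at least 10 cells over the groups compared. The classes were cut on genes of these same cells, so the contrast is a description and no test. Of 14 measured fibroblast identity genes 13 were lower in Rgs5+Ren1-led cells (median log2 ratio -4.14, all genes -0.02), and so were 14 of 15 collagens outside the rule (median -4.18). All 8 measured pericyte and mural genes (median 3.57) and 12 of 14 contractile genes were higher there. Of 13 mitochondrially encoded genes 8 were higher there as well (median 1.11), beside the mitochondrial shares given above.

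The chemokine gene Cxcl14, the small proteoglycan gene Dcn, the basement membrane collagen Col15a1, the signalling ligand Wnt4 and the microfibril gene Mfap5 had the largest differences towards the collagen-led cells. They gave 3244, 2505, 2148, 1113 and 903 UMIs in collagen-led cells and 0 UMIs in all 72 Rgs5+Ren1-led cells. A count of 0 there allows up to 5.85 CPM. Mgp, which codes for a matrix inhibitor of calcification, reached 26853 CPM in collagen-led cells against 1715 CPM in the others.

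In the other direction, Pln, which regulates the calcium pump of the muscle store, gave 361 UMIs in 59 Rgs5+Ren1-led cells and 0 in the 126 collagen-led cells. Rergl, Rgs7bp and Olfr558, an olfactory receptor gene, gave 310, 214 and 152 UMIs against 0, where 0 allows up to 1.49 CPM. Pcp4l1 gave 685 UMIs against 3. Acta2, the smooth muscle actin, stood at 15453, 8210, 9706 and 13363 CPM in Rgs5+Ren1-led cells at day 5, day 5 with Lac.z, day 14 and day 28, and at 1757, 2540, 941 and 961 CPM in collagen-led cells. In each library the CPM of Acta2 was higher in Rgs5+Ren1-led cells. Des, an intermediate filament gene, Cald1, an actin regulator, Gsn, an actin-severing protein, and Col18a1 did not differ past 2-fold between the classes.

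The label names pericytes, and nearly all Rgs5+Ren1-led cells also held a marker of smooth muscle. Myh11, the smooth muscle myosin heavy chain, was found in 71 of these 72 cells and in 7 of 126 collagen-led cells. Its level was 5767, 3174, 3037 and 4272 CPM in the 4 libraries, in the order above. T cells, which should lack it, held a Myh11 UMI in 1 of 292, 0 of 215, 1 of 609 and 1 of 496 cells. Notch3, Mcam and Cspg4, which pericytes and smooth muscle share, were in 62, 58 and 53 of the 72 cells. Genes more typical of pericytes were mixed. Higd1b gave 20 UMIs in 11 cells, Kcnj8 gave 1 UMI and Abcc9 gave 0. Ndufa4l2 and Cox4i2 of the pericyte and mural list gave 207 UMIs in 52 cells and 114 UMIs in 46. The cells are therefore called by their leading genes. In collagen-led cells the levels of Acta2 and Tagln came with 16 UMIs of Myh11 in all.

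**Figure D3:**
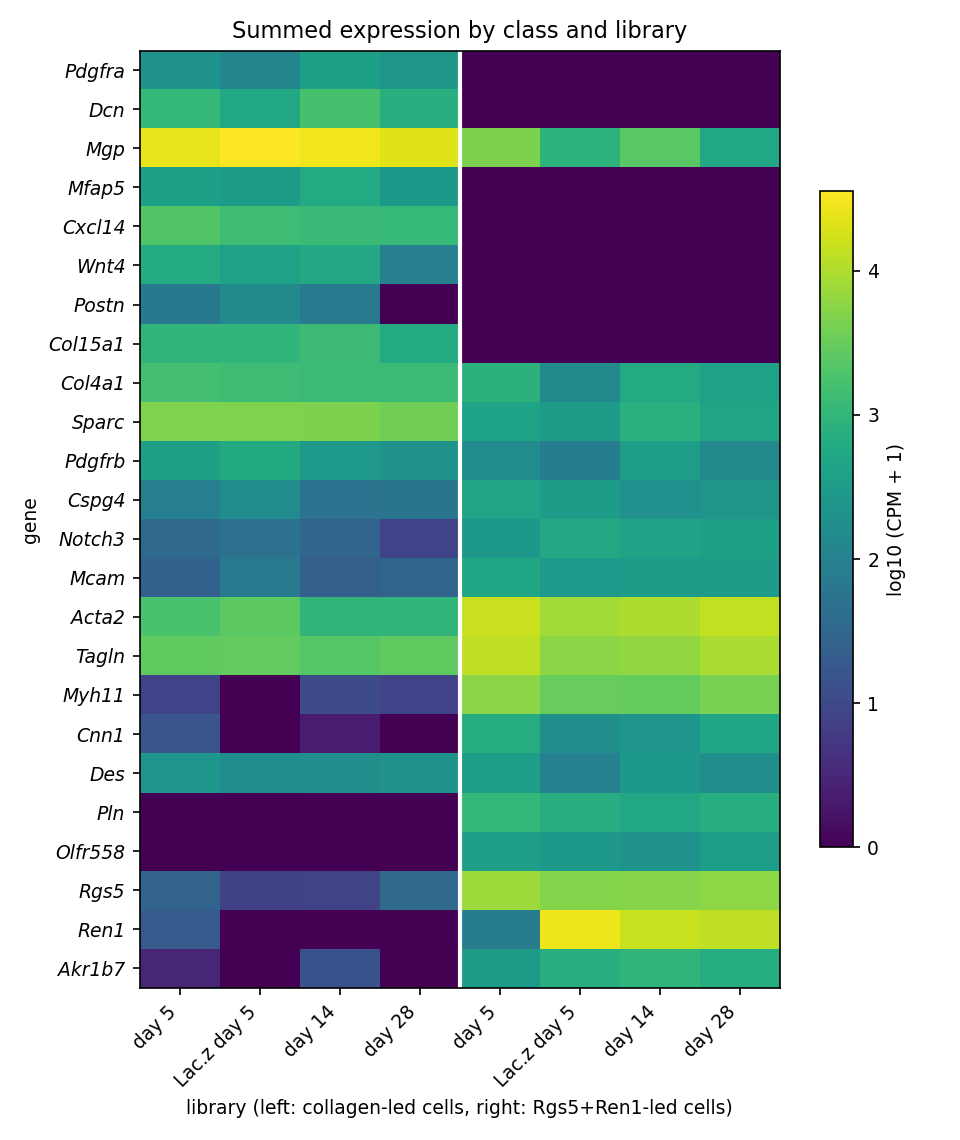
Summed expression of 24 genes (rows) in collagen-led cells (left 4 columns) and Rgs5+Ren1-led cells (right 4 columns) of each library, as log10 of CPM plus 1 in colour. Fibroblast genes such as Dcn and Wnt4 are at 0 on the right, and Pln and Olfr558 are at 0 on the left, in every library.

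Renin transcripts were concentrated in a few cells of 3 libraries and were nearly absent at day 5 without Lac.z. Ren1 gave 24 UMIs in 8 cells at day 5, with at most 6 in a cell, and 6 of these cells were collagen-led. It gave 1624 UMIs in 4 cells at day 5 with Lac.z (894, 386, 216 and 128). At day 14 it gave 2211 UMIs in 13 cells, and the 4 highest held 925, 758, 166 and 146. At day 28 it gave 2937 UMIs in 15 cells, and the 4 highest held 1925, 486, 190 and 144. The highest cell held 55.0% of the library's member UMIs with Lac.z and 65.5% at day 28, so those totals rest on that cell. Cells with at least 20 Ren1 UMIs numbered 0, 4, 8 and 6. Ren1 is in the rule, so these counts are a description. In T cells 0 of 292, 1 of 215, 1 of 609 and 0 of 496 held a Ren1 UMI, with median depths of 3275 to 4527 UMIs.

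Akr1b7, an aldo-keto reductase known as a companion of renin, was not used to choose the cells. It gave 304, 748, 950 and 654 CPM in Rgs5+Ren1-led cells and at most 12.9 CPM in collagen-led cells. Its lowest value was again at day 5, where 60.9% of its 23 UMIs were in 1 cell. Crip1, a LIM domain gene of smooth muscle and renin cells, stayed between 4435 and 4909 CPM in all 4 libraries. Hopx, a homeodomain gene of the mesangial list, gave 251, 947, 448 and 452 CPM.

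The gene comparison with the most cells was day 14 against day 5 in collagen-led cells, 52 against 51. Immediate early genes were higher at day 14 as a group, while the other matrix and contractile lists had medians nearer to that of all genes. Of 4664 measured genes 210 (4.50%) were at least 2-fold higher and 89 (1.91%) at least 2-fold lower, with a median log2 ratio of 0.03. Of 22 measured genes of the immediate early and dissociation list 18 were higher and none lower, with a median of 1.47. The same genes had a median of 0.08 in the barcodes that were not members. This list holds transcription factors and feedback regulators that cells switch on within minutes of a stimulus, including the enzymatic digestion of tissue, and whether digestion took part was not tested.

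Atf3, a stress-induced transcription factor, gave 29.5 CPM at day 5, 38.9 under Lac.z, 410 by day 14 and 323 by day 28 in collagen-led cells. Its day 14 value was 13.9-fold above day 5 (9.42 to 21.2), from 318 UMIs in 32 of 52 cells against 28 UMIs in 10 of 51. Klf2, a zinc finger factor, gave 169, 259, 1279 and 265 CPM and was 7.58-fold higher at day 14 (6.41 to 9.02). Fos, a subunit of the AP-1 factor, gave 1200, 1361, 5589 and 3233 CPM and was 4.66-fold higher (4.36 to 4.98). Nr4a1, a nuclear receptor, was 4.58-fold higher (3.52 to 6.03). All 4 were lower in both day 5 libraries than at day 14. One cell held 66.7% of the Atf3 UMIs and 62.5% of the Klf2 UMIs with Lac.z, and 57.8% of the Atf3 UMIs at day 28, so those levels rest on that cell. The heat shock genes Hsp90aa1 and Hspa1a of the same list were not past 2-fold, at ratios of 1.18 and 1.73.

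Outside the list, Rcan1, an inhibitor of calcineurin, was 10.4-fold higher at day 14 (5.95 to 19.6), from 119 UMIs against 14. Tfap2a, a transcription factor gene, was 7.33-fold higher (3.84 to 15.4). Kap, an androgen-regulated gene of the proximal tubule, was 6.28-fold higher (3.95 to 10.4), and its UMIs were in 44 of 52 cells at day 14 and 19 of 51 at day 5. The proximal tubule markers were at 861 CPM in these cells at day 14 and 575 CPM at day 5, and their part in this was not tested. The 5 largest differences towards day 5 were the macrophage genes C1qa, Tyrobp, C1qc, Lyz2 and C1qb. C1qa gave 145 UMIs at day 5 and 2 at day 14, which is 59.3-fold lower (16.1 to 495). Most macrophage UMIs at day 5 were in 1 cell, as given above, but Lyz2 was found in 42 of 51 cells and C1qa in 18. In the other barcodes the macrophage markers stood at 28439 CPM at day 5 and 4430 CPM at day 14. How far RNA from other cells added to these UMIs was not tested.

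The matrix genes of the collagen-led cells mostly held their level from day 5 to day 14. Of 15 collagens outside the rule 1 was higher and 1 lower (median -0.29), and of 32 matrix glycoproteins, proteoglycans and crosslinkers 1 was higher and 2 lower (median -0.08). The higher collagen was Col12a1, a fibril-associated collagen, at 118 CPM at day 5, 90.7 under Lac.z, 567 by day 14 and 78.9 by day 28. It was 4.80-fold above day 5 at day 14 (3.89 to 5.96), and day 14 stood alone. The lower collagen was Col5a3, a fibrillar chain, 2.88-fold lower (2.07 to 4.09). Cthrc1, a secreted gene of injury-activated fibroblasts, gave 79 UMIs in 15 cells at day 5 and 9 in 7 cells at day 14, 7.18-fold lower (3.60 to 16.3). Sparc and Bgn, an abundant glycoprotein and an abundant proteoglycan, were within 2-fold, at ratios of 0.953 and 1.21.

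Of 18 measured proteases and inhibitors 5 were higher and 1 lower. Mmp11, a matrix metalloprotease, was 3.77-fold higher (2.54 to 5.73), and Adamts1, which cleaves proteoglycans, was 3.05-fold higher (2.29 to 4.11). Timp1, an inhibitor of metalloproteases, gave 3314 CPM at day 5, 765 under Lac.z, 1147 by day 14 and 488 by day 28, so day 5 without Lac.z was the highest library. It was 2.89-fold lower at day 14 than at day 5 (2.68 to 3.12). Timp3, another inhibitor, was within 2-fold at a ratio of 0.835. Among 19 genes of the TGF-beta, PDGF and YAP list 2 were higher and 2 lower (median 0.10). Ctgf, a matricellular growth factor, was 3.92-fold higher at day 14 (3.46 to 4.46), and Tgfb1 itself was 2.04-fold lower (1.70 to 2.45).

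Chemokine and complement genes went both ways, with 4 of 14 higher and 4 lower. The adhesion molecules Icam1 and Vcam1 were 3.17-fold (2.33 to 4.35) and 2.87-fold (2.04 to 4.09) higher at day 14. Cxcl12, which retains leukocytes and progenitors, was 2.17-fold lower (1.80 to 2.64), and the alarmin Il33 was 2.18-fold lower (1.70 to 2.80). Ccl11, the eotaxin gene, was 3.60-fold lower, but 89.4% of its day 5 UMIs were in 1 cell and the value rests on that cell. None of the 9 contractile genes and none of the 21 nuclear-encoded respiratory chain genes was past 2-fold. Of 12 hypoxia and glycolysis genes only Hk2, hexokinase 2, was higher, by 2.56-fold (2.02 to 3.25).

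**Figure D4:**
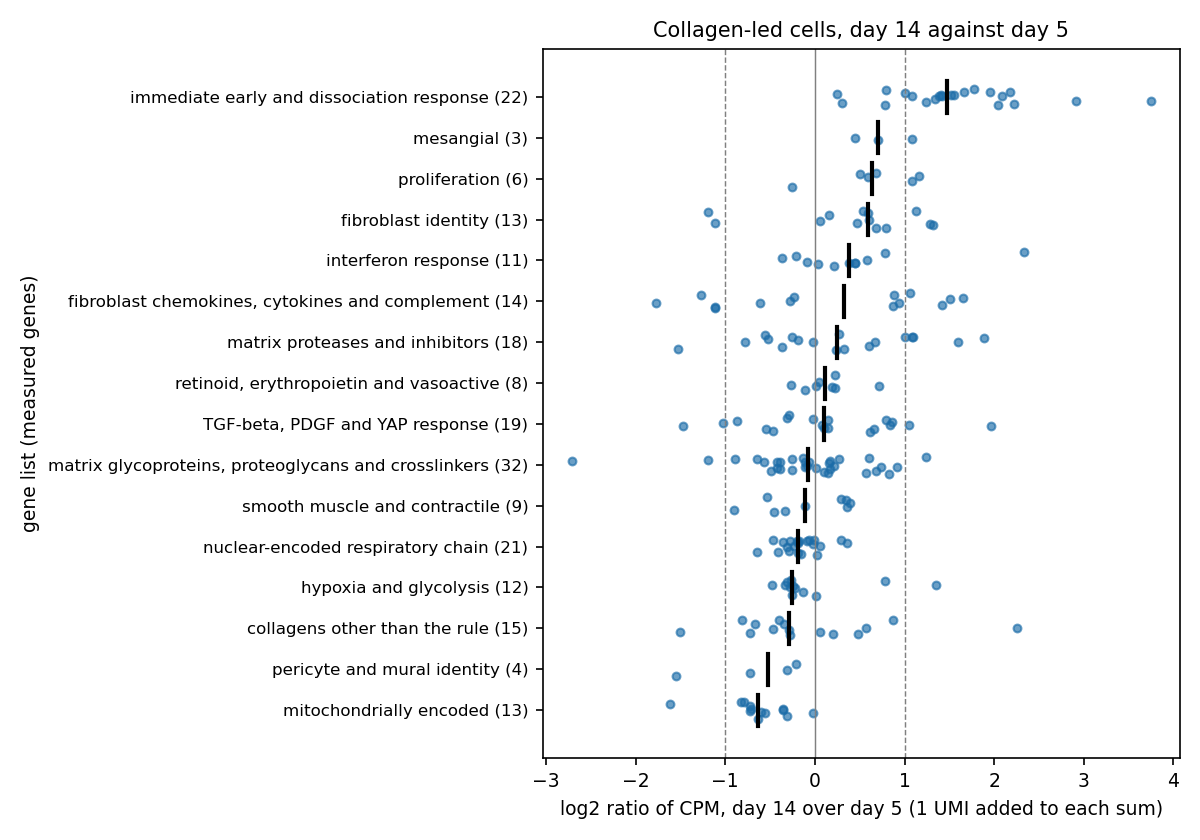
Log2 ratio of CPM at day 14 over day 5 in collagen-led cells (x axis, 1 UMI added to each sum), with 1 point per measured gene of each list (rows, number of genes in brackets), black bars at list medians and dashed lines at 2-fold. The immediate early list has its median at 1.47, while the collagens outside the rule have theirs at -0.29 and the contractile genes theirs at -0.11.

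At day 28 only 14 collagen-led cells were left, with 139479 UMIs in all, below the minimum of 20 cells set for gene comparisons. They held from 4 to 141 UMIs of the 3 collagens each, with a median of 24, against a median of 145.5 at day 14. Some held Col1a2 but no Col3a1 or Pdgfra UMI. How far the makeup of the class differed between the days was not tested. The 14 cells are compared under a minimum of 5 cells chosen after the numbers were known. Against day 14, 133 of 2843 measured genes (4.68%) were at least 2-fold higher and 192 (6.75%) at least 2-fold lower. Matrix lists were lower in part, with 5 of 14 collagens lower and 1 higher (median -0.67), 10 of 30 matrix glycoproteins lower and 2 higher (median -0.71), and 5 of 14 proteases and inhibitors lower (median -0.72). The median over all genes was 0.02.

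Col12a1 was 7.19-fold lower at day 28 than at day 14 (3.98 to 14.5). Postn, another matricellular gene of activated fibroblasts, gave 58 UMIs at day 14 and 0 at day 28, at least 3.47-fold lower. Serpinf1, an inhibitor of vessel growth, gave 144 UMIs against 1, 25.9-fold lower (4.57 to 1029). Col14a1, a fibril-associated collagen, was 3.20-fold higher (2.14 to 4.74). The basement membrane chain Col4a1 was level, at 1268 and 1255 CPM.

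Of 46 listed interferon response genes 10 were measured. Of these, 4 were at least 2-fold higher at day 28 than at day 14 in these 14 cells, and none was lower (median 0.95). H2-K1 and H2-D1, class I histocompatibility genes, gave 276 and 313 CPM at day 14 and 1025 and 1097 CPM at day 28, 3.72-fold (2.99 to 4.62) and 3.50-fold (2.84 to 4.31) higher. The same 10 genes had a median of -0.47 in the other barcodes. Immediate early genes were lower, with 7 of 22 past 2-fold and none higher. Of 21 nuclear-encoded respiratory chain genes 6 were higher, among them Cox8a by 2.22-fold (1.87 to 2.62). Tubule markers were higher in these cells too. The proximal tubule markers stood at 1728 CPM at day 28 and 861 CPM at day 14. The 6 distal tubule markers stood at 695 and 92.8 CPM, with 84 of their 97 UMIs at day 28 in 1 cell, beside the collecting duct UMIs of 1 cell given above. Their part in these values was not tested. Atp1b1, a sodium pump subunit, was 9.69-fold higher (6.86 to 13.8) from 4 cells, and 1 cell held 62.8% of its UMIs at day 28 and 1 held 70.4% at day 14.

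When all members were summed, most measured contractile genes were higher and most collagens lower at day 28 than at the earlier days, while the makeup of the members changed. Against day 5, 436 of 4029 measured genes (10.8%) were higher and 456 (11.3%) lower, and against day 14 297 of 3928 (7.56%) were higher and 404 (10.3%) lower. Day 14 against day 5 gave 216 of 5131 higher (4.21%) and 96 lower (1.87%), or 6.08% either way. Contractile genes were higher at day 28 in 10 of 14 cases against day 5, with a median of 1.71, while in collagen-led cells alone 1 of 9 was higher and 1 lower (median -0.07). Collagens outside the rule were lower in 11 of 14 cases against day 5, with a median of -1.78, and in 4 of 14 in collagen-led cells alone (median -0.62). Rgs5+Ren1-led cells were 13.6% of the members at day 5 and 72.0% at day 28.

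Within Rgs5+Ren1-led cells, day 28 and day 14 (36 against 21 cells) were alike in most measured genes. Of 1156 measured genes 22 (1.90%) were at least 2-fold higher at day 28 and 28 (2.42%) lower, so 44.0% of those past 2-fold were higher. With equal weight per cell that share was 29.5%, and with 5 UMIs added to each sum 21.2%. None of 14 contractile genes was past 2-fold (median 0.43), none of 21 respiratory chain genes was (median 0.21), and of 21 immediate early genes only Klf4, a factor that represses the smooth muscle programme, was lower, by 3.51-fold (2.12 to 6.00). Acta2 and Tagln stood at ratios of 1.38 and 1.47. Of the mural list 1 of 7 was lower, Rgs4, a regulator of G protein signalling, by 2.57-fold (1.63 to 4.12).

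Palld, an actin-bundling protein, gave 1214, 499, 475 and 1111 CPM in Rgs5+Ren1-led cells at day 5, day 5 with Lac.z, day 14 and day 28. It was 2.34-fold higher at day 28 than at day 14 (1.79 to 3.09), and day 28 was close to day 5. The cyclin gene Ccnd1 was 2.68-fold higher (1.37 to 5.76) and Immt, of the inner mitochondrial membrane, was 2.52-fold higher (1.31 to 5.22), from 45 and 46 UMIs at day 28. Plat, tissue plasminogen activator, was 4.33-fold lower at day 28 (2.53 to 7.74). Tmsb10, an actin-binding peptide gene, was 7.01-fold lower (3.49 to 15.6), with 54.3% of its day 14 UMIs in 1 cell. Spink1, a trypsin inhibitor of injured tubules, was 14.2-fold lower (6.14 to 40.4), and Apoe was 4.88-fold lower (2.68 to 9.37). For Apoe 1 cell held 66.7% of the day 28 UMIs. Kap was 9.45-fold lower, and 1 day 14 cell held 67.7% of its UMIs there. Mgp was 4.86-fold lower, with 73.3% of its day 14 UMIs in 1 cell, and its log2 ratio was 0.0068 once barcodes with the highest doublet scores were removed. Atp1b1 was 2.73-fold higher, and 72.0% of its day 28 UMIs were in 1 cell. The 13 proximal tubule markers were at 5198 CPM in these cells at day 14, with 54.8% of their UMIs in 1 cell, and at 1409 CPM at day 28.

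At day 5 the library from mice given Lac.z held only 9 collagen-led cells against 51 without it, and 7 against 8 Rgs5+Ren1-led cells. It was below the minimum of 20 cells, so genes were compared with the minimum of 5. In these 9 cells most measured interferon response genes were higher, while collagens and contractile genes were level. Of 3190 measured genes 93 (2.92%) were at least 2-fold higher with Lac.z and 120 (3.76%) at least 2-fold lower, or 6.68% either way. Of 46 listed interferon genes 11 were measured. A gene low at day 5 could pass the filter through its UMIs with Lac.z, so the count and median are a description. Of these 11 genes 7 were higher and none lower, with a median of 1.49, where all genes had 0.06. The same genes had a median of 0.98 in the barcodes that were not members. The share of those barcodes with a UMI went from 17.4% to 31.2% for Isg15 and from 8.31% to 33.3% for Ifit3, but from 59.3% to 54.8% for Bst2 and from 55.2% to 35.5% for Ifi27l2a. Without members that held macrophage or distal tubule UMIs the median in collagen-led cells was 1.13. Over all members the median of the list was 1.69, and 0.82 without such members.

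Interferon response genes are switched on by the ISGF3 factor at a promoter element called ISRE. The 3 genes with the largest ratio are shown with the 300 bases around their start site, 250 before and 50 after, from the RefSeq promoter table of build GRCm38.p6, written 5′ to 3′ on the gene's strand. Capitals mark the core of the element, GAAA followed by any 2 bases and GAAA again, searched on both strands, with overlapping matches run together. Isg15 lies on the minus strand at chr4:156200769-156201068, Ifit3 on the plus strand at chr19:34583279-34583578 and Bst2 on the minus strand at chr8:71537423-71537722.
Isg15: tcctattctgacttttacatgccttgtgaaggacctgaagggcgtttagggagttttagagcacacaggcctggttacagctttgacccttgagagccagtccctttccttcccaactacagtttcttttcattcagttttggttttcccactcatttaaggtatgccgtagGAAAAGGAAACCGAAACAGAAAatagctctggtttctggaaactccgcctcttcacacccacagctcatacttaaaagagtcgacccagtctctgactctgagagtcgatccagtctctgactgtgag
Ifit3: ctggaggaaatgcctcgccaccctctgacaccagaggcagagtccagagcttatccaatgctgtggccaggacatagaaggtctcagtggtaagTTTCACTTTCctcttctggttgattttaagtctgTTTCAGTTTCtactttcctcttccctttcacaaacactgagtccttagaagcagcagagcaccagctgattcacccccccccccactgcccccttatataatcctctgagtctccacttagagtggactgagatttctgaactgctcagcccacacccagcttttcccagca
Bst2: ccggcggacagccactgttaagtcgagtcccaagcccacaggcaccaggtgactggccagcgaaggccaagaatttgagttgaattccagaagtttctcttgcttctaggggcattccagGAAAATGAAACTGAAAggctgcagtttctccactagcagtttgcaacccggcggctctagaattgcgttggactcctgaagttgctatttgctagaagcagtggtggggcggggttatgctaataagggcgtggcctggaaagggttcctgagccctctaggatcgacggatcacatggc
The windows hold 3, 2 and 2 matches. Of the 11 measured genes 9 had an entry in the table and 5 of these held a match in at least 1 entry. Ifi203 and H2-K1 had 2 entries each, and 1 of the 2 for Ifi203 held no match. Over the whole table, counted by promoter and not by gene, 1131 of 32851 entries held one (3.44%). A match is a run of letters and does not show that the factor was bound.

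Ifit3, an inhibitor of viral translation, gave 10.5 CPM at day 5, 279 under Lac.z, 18.0 by day 14 and 28.7 by day 28 in collagen-led cells. It was 26.4-fold higher with Lac.z (13.1 to 59.0), from 43 UMIs in 7 of 9 cells against 10 UMIs in 8 of 51. Isg15, a ubiquitin-like modifier, gave 40.1, 564, 10.3 and 50.2 CPM and was 14.1-fold higher (9.51 to 21.2), from 87 UMIs in 6 of 9 cells. Bst2, also called tetherin, which holds budding virus at the membrane, gave 100, 881, 116 and 165 CPM and was 8.80-fold higher (6.72 to 11.6). Ifi27l2a gave 325, 1996, 334 and 746 CPM and was 6.14-fold higher (5.23 to 7.22). In all 4 the Lac.z library was the highest, and no single cell held over 37.2% of its UMIs. H2-D1 and H2-K1 were not past 2-fold, at ratios of 1.51 and 1.73.

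T cells of the same libraries were higher in these genes, with an Isg15 UMI in 18.8% of 292 cells at day 5 and in 48.4% of 215 with Lac.z, an Ifit3 UMI in 10.6% and 48.4%, a Bst2 UMI in 39.0% and 65.1%, and an Ifi27l2a UMI in 55.1% and 80.5%. Their median depths were 4487 and 4527 UMIs, and the members' were 15920 and 9982. How far RNA from other cells added to the 9 cells' UMIs was not tested.

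**Figure D5:**
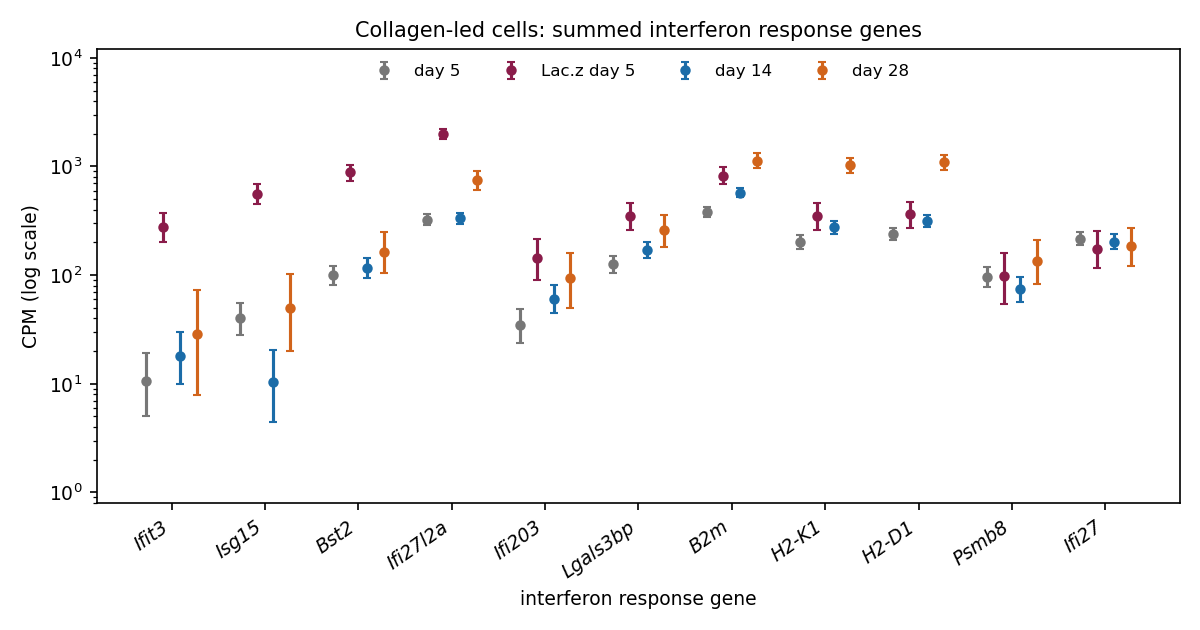
Summed expression in CPM (y axis, log scale) of the 11 interferon response genes measured in collagen-led cells of both day 5 libraries (x axis), with 1 point per library and bars for the exact 95% Poisson interval. For Ifit3, Isg15, Bst2 and Ifi27l2a the Lac.z library lies highest, at 279, 564, 881 and 1996 CPM, and for H2-K1 and H2-D1 day 28 lies highest, at 1025 and 1097 CPM.

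Other lists were mostly level with Lac.z. Of 14 collagens outside the rule only Col8a1, a short-chain collagen of vessels, was past 2-fold, higher by 3.74-fold (2.72 to 5.12). None of 9 contractile genes was (median -0.01), and of 31 matrix glycoproteins 2 were higher and 5 lower (median -0.07). Timp1 gave 118 UMIs with Lac.z and 3143 without it, 4.33-fold lower (3.61 to 5.25). Lox, which crosslinks collagen, was 2.56-fold lower (1.63 to 4.24), and Dpt, a small matrix protein of the fibroblast list, was 7.16-fold lower (2.40 to 35.2) from 3 UMIs. The neutrophil chemokine Cxcl5 and the protease inhibitor Serpina3n gave 0 UMIs with Lac.z against 105 and 103, at least 5.70-fold and 5.59-fold lower. The leukocyte adaptor genes Fcer1g and Tyrobp gave 0 against 100 and 50, and 1 day 5 cell held 52.0% of the Fcer1g UMIs. The cell cycle inhibitor Cdkn1c gave 3 UMIs in 1 cell against 219 in 19, 11.9-fold lower (4.01 to 58.1). Over all members 117 of 3565 genes (3.28%) were higher and 165 (4.63%) lower, or 7.91% either way.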

How the data were processed

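Droplet single-cell RNA sequencing counts of UMIs per gene and barcode were used as deposited by the authors, in 1 matrix per library. Per the labels' protocols the kidney was digested with enzymes, strained and freed of red cells. Per the submitters' processing notes the build was mm10. Per the file headers the software version was 3.0.2 at day 5, with and without Lac.z, and 3.1.0 later. No source used here gives the aligner settings or the annotation. Library totals ran from 76678882 to 104454319 UMIs.

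UMIs of the 31053 genes were summed over the members of a library and scaled to a total of 1000000, written CPM (python 3.11.15, numpy 2.4.6, scipy 1.17.1, pandas 2.3.3). Ratios carry exact conditional binomial 95% intervals, and shares exact Clopper-Pearson intervals. UMIs in cells of 1 library are not independent samples, and these intervals cover counting error only. Measured genes had 50 UMIs or more in 10 or more members over both libraries, where each library had at least 20 members, and were past 2-fold on the ratio with 1 UMI added. Against a count of 0 the fold is a bound at 3 counts per library. T cells were kept barcodes outside the members with at least 2 Cd3 UMIs and no UMI of Lrp2, C1qa or C1qb. This type was chosen after the data were seen. Barcodes with tubule or macrophage RNA of these genes were thus left out of the T cell values.

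The members and gene lists were chosen with earlier results of these data known. Named genes were taken from the 5 highest and 5 lowest past 2-fold in each comparison, and not all of these are named. Among those left out in collagen-led cells were Tnfsf8 with Lac.z, 84.4% in 1 cell, and Pdzk1ip1 at day 28, 88.6% in 1 cell. List members past 2-fold were also taken, up to 4 per list and direction, with up to 2 not past it. Npy, Cck, Wnt4, Spp1, Cxcl14 and Ghrh in the closing section were picked after their values were seen. Doublets were not removed. Scrublet in scanpy 1.11.5 was used as an alternative at 0.8% per 1000 barcodes, because its own threshold marked only 1 barcode with Lac.z and 2 at day 28 and had not worked there. The other alternatives were the mitochondrial limit, the UMI minimum of the rule, thinning to 2000 UMIs, the denominator, the scaling, the filter on low genes and the UMIs added. The computation was tested on simulated data. Figures were drawn with matplotlib 3.10.9.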

Additional observations from a re-analysis of the deposited data

How the results depend on the processing

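The share of members moved with the denominator. Over barcodes with no Lrp2 UMI the ratio to day 5 was 0.556 under Lac.z, 1.95 for day 14 and 1.16 for day 28. The last interval includes equality (0.778 to 1.72), so no change of direction is read from it. Members with 1 Lrp2 UMI were still counted as cells there. Counted once per alternative, 21 of the member share ratios and 20 collagen-led shares of members stayed within their interval. The number of genes past 2-fold followed the filter on low genes. With at least 20 UMIs it was 713 for day 14 against day 5, 1754 for day 28 against day 5, 1428 for day 28 against day 14, 695 in collagen-led and 236 in Rgs5+Ren1-led cells. With at least 100 UMIs these were 160, 486, 408, 153 and 20, against 312, 892, 701, 299 and 50 as reported. With 5 UMIs added the count in Rgs5+Ren1-led cells was 33. Within collagen-led cells alone 451 genes were past 2-fold for day 28 against day 5 and 325 against day 14, and within Rgs5+Ren1-led cells 50 for day 28 against day 14. Medians that were positive over all members turned to -0.51 for mural and -0.073 for contractile genes (collagen-led, day 28 against day 5) and to -0.14 for mural and -0.20 for renin genes (Rgs5+Ren1-led, day 28 against day 14). For day 28 against day 5, 48.9% of the genes past 2-fold were higher, and 59.1% with 5 UMIs added. The log2 ratio of Mgp turned to 0.0068 without the highest Scrublet scores in Rgs5+Ren1-led cells. The cause was not tested. For the 5 highest and 5 lowest genes of each comparison made at 20 members, log2 ratios were counted once per gene and alternative. Of these 335 kept their call and direction, 4 moved and 1 turned. Other named genes were not in this count. Barcodes with the highest Scrublet scores included 6 of 59 members at day 5, 0 of 16 with Lac.z, 22 of 73 at day 14 and 4 of 50 at day 28. They were 5.67%, 5.64%, 7.66% and 11.3% of all kept barcodes in the same order. Without them, fewer than 20 Rgs5+Ren1-led cells were left for a gene count at day 14, and Lac.z was not run at 20 members. No paired analysis was possible because each group was 1 library. Depth limits the 9, 14, 8 and 7 cells of the smallest sets.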

Other observations

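Several genes of secreted signals were found in collagen-led cells. The neuropeptide gene Npy gave 414 CPM at day 5, 84.2 under Lac.z, 29.6 by day 14 and 14.3 by day 28, and in each of the 4 libraries 1 cell held most of its UMIs. The peptide hormone gene Cck gave 291, 32.4, 277 and 158 CPM in 18, 3, 27 and 5 cells, and 1 cell held most of its 5 UMIs under Lac.z and of its 22 at day 28. Penk, the enkephalin precursor, gave 191, 12, 60 and 0 UMIs, and 1 cell held most of the 12. Wnt4, a signalling ligand, gave 630, 402, 568 and 93.2 CPM, with most of the 13 UMIs of day 28 in 1 cell. Cxcl14 gave 2063, 1367, 1184 and 1133 CPM, the last with 53.8% of its UMIs in 1 cell. Ghrh, growth hormone-releasing hormone, gave 59 UMIs in 1 day 5 cell.

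Spp1, the osteopontin gene, gave 4808, 4516, 13351 and 3549 CPM in collagen-led cells and at most 19 UMIs in Rgs5+Ren1-led cells of a library, and 1 cell held most of its UMIs with Lac.z. An Spp1 UMI was in 59.3%, 56.3%, 63.0% and 30% of all members, and in 68.4%, 82.8%, 74.0% and 63.6% of the other barcodes. How far RNA from other cells added to it was not tested. Epo, the erythropoietin gene that interstitial fibroblasts can express, gave 0 UMIs in all 198 members, where 0 allows a share of up to 1.52% of cells with a UMI.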
